A study of Homo sapiens with 4 samples.

Results

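Bone morphogenetic protein (BMP) ligand genes and the genes best known as BMP readouts were followed in a colon cancer cell line exposed to TGF-β1. The set holds 10 of the 19775 genes named on the array, namely the ligands BMP2, BMP4 and BMP7, the inhibitors of DNA binding ID1, ID2, ID3 and ID4, the homeobox genes MSX1 and MSX2, and ATOH8. Every probe set, the group of short probes that reads a transcript, was taken if the platform annotation gave it one of these names alone. This gave 24 probe sets of the 54613 on the array that are not array controls, and all 24 were tested, since no filter on dim probe sets was used.

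The study used LSTGFBR2, an epithelial colon cancer line with a doxycycline-inducible construct for the type II TGF-β receptor, TGFBR2. One group, called TGF-β1 here, received recombinant human TGF-β1 at 5 ng/ml for 16 hours, starting 16 hours after seeding (2 arrays). The other is labelled as having had no treatment (2 arrays, called untreated). The protocol, the same for all samples, adds doxycycline at 1 µg/ml from seeding, while the design text speaks of cells with and without it, and no label ties it to particular arrays. The line is an engineered derivative, and whether it is 1 clone or a pool is not stated. Nothing ties the replicates to separate cultures, so each p-value covers array-to-array spread that may be technical.

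BMPs are secreted dimers of the TGF-β superfamily. They bind pairs of type I and type II serine/threonine kinase receptors, which phosphorylate SMAD1, SMAD5 and SMAD9, and with SMAD4 these enter the nucleus and switch on the ID genes and, in many tissues, MSX genes. TGF-β itself signals mainly through SMAD2 and SMAD3, and in some cells also reaches SMAD1 and SMAD5. ID proteins carry a helix-loop-helix domain without a DNA-binding region, so they pair with E proteins and keep them off DNA. In the intestine, BMP signalling is strongest away from the crypt base and restrains stem cells.

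The arrays bear on these genes as follows. The replicate arrays correlated at 0.995 in both groups over all probe sets, and arrays of different groups at 0.990 to 0.992. One of the TGFBR2 probe sets (207334_s_at) read 14.7 and 14.9 in TGF-β1 arrays against 9.44 and 9.55 in untreated arrays, on the RMA log2 scale used throughout, and the other (208944_at) had a log2 fold change of 0.03. TGF-β1 and the higher TGFBR2 signal therefore cannot be told apart in the comparison. All 10 intestinal epithelial markers had a probe set above the array medians, with means of 7.75 to 15.1, and none of their 16 probe sets passed. Of the markers of other cell types, 0 of 26 fibroblast, 0 of 11 endothelial and 0 of 7 leukocyte probe sets passed. Over the brightest probe set of each gene, the mean log2 value of the fibroblast markers was 6.61 and 6.45 in TGF-β1 arrays against 6.91 and 6.78 in untreated arrays. Single fibroblast probe sets went both ways, with log2 fold changes from -1.79 to 2.99, and the highest, COL1A1 1556499_s_at, named after its values were seen, read 7.58 and 8.70 against 4.67 and 5.61 (limma adjusted p = 0.0501). The mean of the endothelial markers was 5.82 and 5.89 against 5.74 and 5.82, and that of the leukocyte markers 5.87 and 5.80 against 5.80 and 5.97. RMA values give no detection call, so no marker can be called absent, and the part of these levels in the results was not tested.

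Of the 10 genes, MSX2 was the one with a probe set that passed, and it was higher with TGF-β1 by 1.76-fold. ID1 was 1.90-fold higher and ID3 1.70-fold lower in the TGF-β1 arrays, and in both cases the groups did not overlap but the test was not passed. The other ID genes, MSX1, ATOH8 and all 3 ligands had no probe set that passed. In counts, 1 of 24 probe sets was higher, 0 were lower and 23 were not called at a limma adjusted p under 0.05 over all 54613 probe sets, against 0.650% of all probe sets called higher and 0.304% called lower. At an unadjusted p under 0.05, 3 were higher and 1 was lower, against 6.34% and 6.87% of all probe sets. With a 2-fold change required besides, as the design text does for its up-regulated genes, 1 was higher and 0 were lower, against 0.721% and 0.229%, and the 1 was MSX2 by probe set 210319_x_at. The groups did not overlap in 4 of the 24 with TGF-β1 higher and in 4 with TGF-β1 lower, against 19.2% and 21.6% of all probe sets, so these counts are close to the background. The median log2 fold change of the 24 was -0.03, and that of all probe sets was -0.01. Differences between TGF-β1 and untreated arrays can be taken as relative only, because RMA brings the arrays to one distribution.

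**Figure D1:**
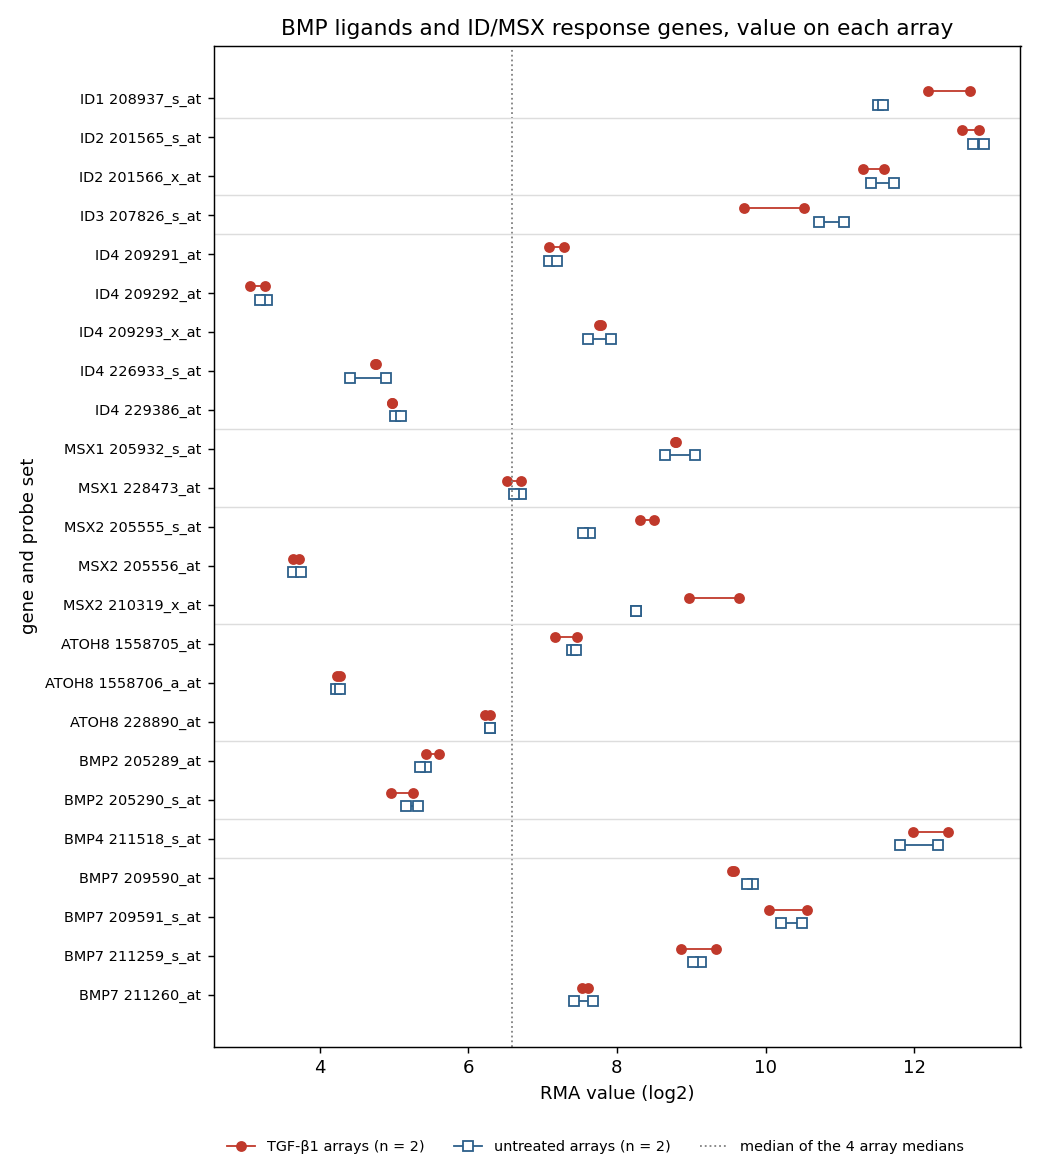
RMA value (log2) of each of the 24 probe sets on each array, with TGF-β1 arrays (filled circles, 2) drawn above untreated arrays (open squares, 2) and a line joining the 2 arrays of a group. The groups do not overlap in 8 probe sets, with the widest differences in ID1, ID3 and 2 of the 3 MSX2 probe sets and small ones in BMP7 209590_at, BMP2 205289_at, ATOH8 228890_at and ID4 229386_at. The 2 BMP4 values of each group lie farther apart than the group means do.

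The ligands were examined first. BMP4, a ligand that the stroma around intestinal crypts makes, is read by 1 probe set (211518_s_at; gene on chromosome 14, 53949736 to 53956891, GRCh38.p14). It read 12.0 and 12.5 in TGF-β1 arrays against 11.8 and 12.3 in untreated arrays, all far above the array medians of 6.57 to 6.61. The groups overlapped, and in both groups the array of replicate 2 was the higher, by 0.48 in the TGF-β1 group and 0.51 in the untreated group. These gaps exceeded the difference between groups, which was 0.15 ± 0.227 on the log2 scale (SE; limma adjusted p = 0.886, n = 2 per group). The 95% interval of the change ran from -0.40 to 0.71, so a 2-fold change lay outside it in both directions. A gap of that size was uncommon, since 96.8% of all probe sets had a smaller one between the untreated arrays.

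BMP7, a ligand needed for kidney and eye development, has 4 probe sets (chromosome 20, 57168753 to 57266641). The brightest on average, 209591_s_at, read 10.6 and 10.0 in TGF-β1 arrays against 10.5 and 10.2 in untreated arrays. A second, 209590_at, read 9.57 and 9.54 against 9.83 and 9.75, and here both TGF-β1 arrays lay below both untreated arrays. That difference was small, at -0.24 ± 0.104 on the log2 scale (SE; 95% interval -0.49 to 0.02; limma adjusted p = 0.425). The 4 probe sets did not point one way, with log2 fold changes from -0.24 to 0.03, and none of their 95% intervals reached a 2-fold change. BMP2, the close relative of BMP4, is read by 2 probe sets that both lay under the array medians (chromosome 20, 6767686 to 6780246). Probe set 205289_at read 5.61 and 5.43 in TGF-β1 arrays against 5.43 and 5.35 in untreated arrays, and 205290_s_at read 5.25 and 4.96 against 5.16 and 5.33. Their log2 fold changes had opposite signs, 0.13 and -0.14, and neither passed (limma adjusted p = 0.754 and 0.800). At such levels changes are compressed by background, so a difference in BMP2 would be hard to see.

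The ID genes are the most widely used readout of BMP signalling. ID1 (chromosome 20, 31605289 to 31606510) read 12.2 and 12.8 in TGF-β1 arrays against 11.5 and 11.6 in untreated arrays by its 1 probe set, 208937_s_at. Both TGF-β1 arrays lay above both untreated arrays, and any TGF-β1 array exceeded any untreated array by 0.60 to 1.25. The means were 12.5 ± 0.405 and 11.5 ± 0.054 (SD, n = 2 each), and the change was 0.92 ± 0.195 on the log2 scale (SE; limma adjusted p = 0.110, unadjusted 0.0033). The 95% interval, 0.44 to 1.40, lay above 0, so the failure to pass came with adjustment over all probe sets. The TGF-β1 arrays differed from each other by 0.57, more than in 97.2% of all probe sets, while the untreated arrays differed by 0.08. Without TGF-β1 replicate 2, the higher of the pair, the log2 fold change was 0.64. With any 1 array left out it lay between 0.64 and 1.21.

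ID3 (chromosome 1, 23557926 to 23559501), which shares the helix-loop-helix domain and the partners of ID1, ran the other way. Its 1 probe set, 207826_s_at, read 9.71 and 10.5 in TGF-β1 arrays against 11.1 and 10.7 in untreated arrays. Both TGF-β1 arrays lay below both untreated arrays, though the higher TGF-β1 array was only 0.19 below the lower untreated one. The change came to -0.77 ± 0.275 on the log2 scale (SE; 95% interval -1.44 to -0.10), with a limma adjusted p of 0.309 (unadjusted 0.0315, n = 2 per group). The TGF-β1 arrays differed by 0.81, a larger gap than in 99.2% of all probe sets. With any 1 array left out the log2 fold change was between -1.17 and -0.36, the value nearest 0 being the one that lacks TGF-β1 replicate 1.

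The opposite signs of ID1 and ID3 were set against each other within each array. The log2 value of ID1 minus that of ID3 was 2.48 and 2.23 in TGF-β1 arrays against 0.46 and 0.87 in untreated arrays. This difference moved by 1.69 on the log2 scale. The groups had to be apart here, because ID1 was higher and ID3 lower in both TGF-β1 arrays than in both untreated arrays. An exact permutation test over the 4 arrays, with 6 splits, therefore had to give a two-sided p of 0.333, the smallest this design allows. The pair was chosen after its values were seen, so the separation and the test add nothing to the results of the single genes. In the TGF-β1 group, the array of replicate 2 was the higher for both genes, so part of their spread cancelled in the difference. In the untreated group ID1 was higher and ID3 lower in replicate 2, so there the spread of the 2 genes added up.

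ID2 (chromosome 2, 8682056 to 8684461) was bright in both groups. Probe set 201565_s_at read 12.9 and 12.6 in TGF-β1 arrays against 12.9 and 12.8 in untreated arrays, and 201566_x_at read 11.6 and 11.3 against 11.7 and 11.4. The groups overlapped in both, with changes of -0.11 ± 0.128 and -0.12 ± 0.157 on the log2 scale (SE; limma adjusted p = 0.837 and 0.859). The 95% interval of the first, -0.42 to 0.20, lies below the value measured for ID1. Another probe set, annotated to both ID2 and its pseudogene ID2B and so not counted here, gave a log2 fold change of 0.26 (limma adjusted p = 0.802). ID4 (chromosome 6, 19837370 to 19842197) has 5 probe sets, of which 3 lay under the array medians. The brightest, 209293_x_at, read 7.78 and 7.76 in TGF-β1 arrays against 7.61 and 7.92 in untreated arrays. Log2 fold changes of the 5 ran from -0.08 to 0.10, and the groups overlapped in all but 229386_at, a probe set at 4.97 and 4.97 against 5.02 and 5.09.

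MSX2 (chromosome 5, 174724582 to 174730896), a homeobox repressor that marks BMP-exposed cells in limb, tooth and skull development, gave the call. Probe set 205555_s_at read 8.50 and 8.31 in TGF-β1 arrays against 7.64 and 7.54 in untreated arrays. Every TGF-β1 array was 0.68 to 0.95 above every untreated array. The TGF-β1 arrays differed from each other by 0.18, more than in 63.5% of all probe sets. The untreated arrays differed by 0.09, more than in 36.1%. The means were 8.41 ± 0.130 and 7.59 ± 0.065 (SD, n = 2 each), which differ by 0.82 ± 0.117 on the log2 scale (SE; 95% interval 0.53 to 1.10; limma adjusted p = 0.0481). MSX2 was thus called just inside the threshold. With any 1 of the 4 arrays left out its log2 fold change was 0.72 to 0.91. It did not pass in these fits, but they leave 1 array in a group and called few of all probe sets.

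The other MSX2 probe sets read differently. Probe set 210319_x_at had the larger change, reading 9.64 and 8.96 in TGF-β1 arrays against 8.25 and 8.25 in untreated arrays. Again both TGF-β1 arrays lay above both untreated arrays, but they differed by 0.67, more than in 98.4% of all probe sets, and the change of 1.05 ± 0.219 on the log2 scale (SE), or 2.07-fold, was not called (limma adjusted p = 0.107). The suffix _x_at, also carried by ID2 201566_x_at and ID4 209293_x_at, marks a probe set whose probes may also match other transcripts. The dim 205556_at read 3.72 and 3.64 against 3.64 and 3.75, near the bottom of the array (log2 fold change -0.01). Averaged over the 3 probe sets, MSX2 differed by 0.62 on the log2 scale, and was not called over genes (limma adjusted p = 0.0581).

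**Figure D2:**
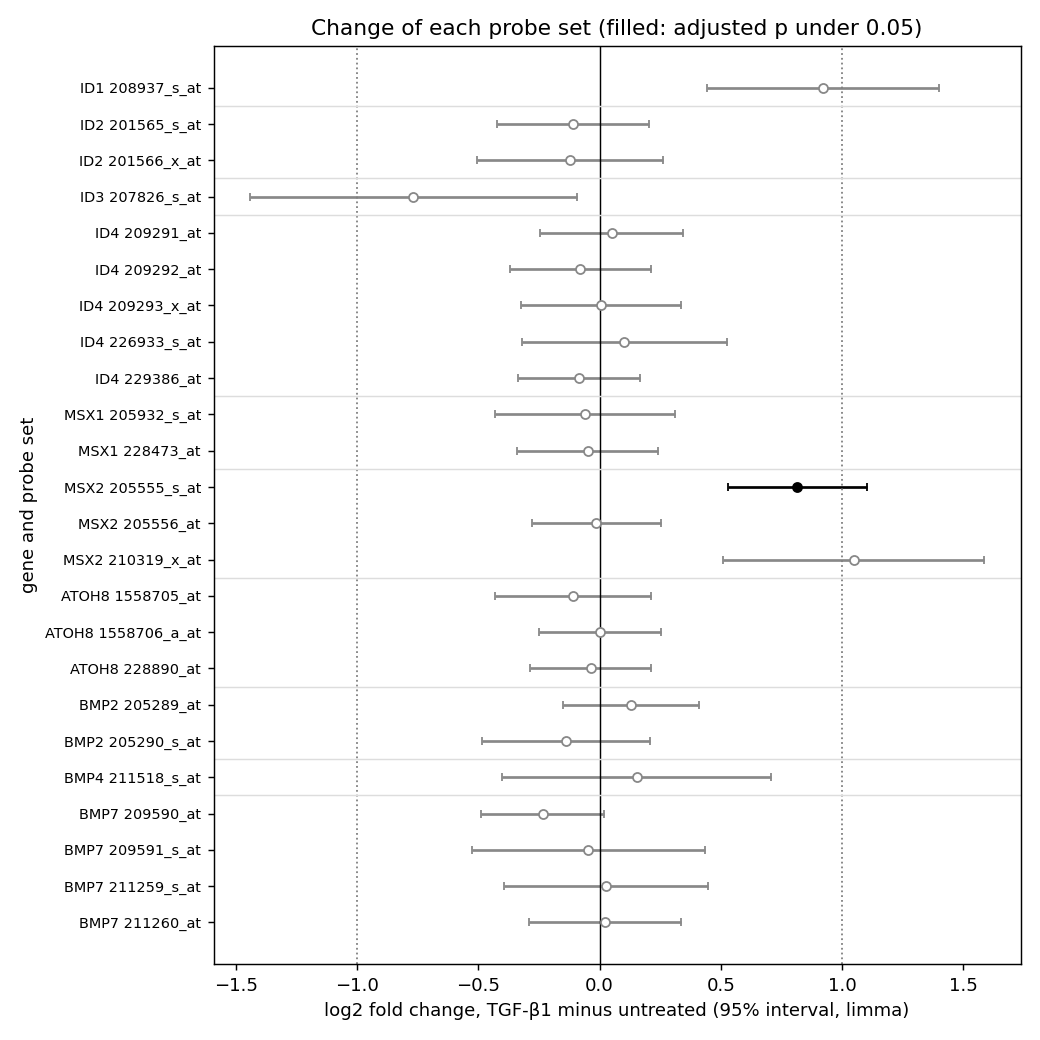
Log2 fold change of each probe set, TGF-β1 minus untreated, with its 95% interval from limma (filled: adjusted p under 0.05; dotted lines at a 2-fold change either way). The MSX2 probe set 205555_s_at is the filled point, ID1 and the other bright MSX2 probe set lie to the right of 0 with wider intervals, and ID3 lies to the left.

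MSX1 (chromosome 4, 4859665 to 4863936), the close relative of MSX2, was not called by either of its probe sets. Probe set 205932_s_at read 8.78 and 8.80 in TGF-β1 arrays against 8.65 and 9.04 in untreated arrays, so the TGF-β1 values lay between the untreated ones. The change was -0.06 ± 0.152 on the log2 scale (SE; limma adjusted p = 0.947), with a 95% interval of -0.43 to 0.31 that ends below the interval of MSX2 by 205555_s_at. Its other probe set, 228473_at, read 6.72 and 6.52 against 6.71 and 6.62, at the array medians. ATOH8 (chromosome 2, 85753991 to 85791383), a basic helix-loop-helix factor that responds to BMP in endothelium and liver, was read by 3 probe sets. The brightest, 1558705_at, read 7.17 and 7.46 in TGF-β1 arrays against 7.40 and 7.45 in untreated arrays. The 3 log2 fold changes ran from -0.11 to 0.00, and 2 of the 3 probe sets lay under the array medians.

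Over all members, 20 of the 24 probe sets had a 95% interval that lay wholly within a 2-fold change in either direction, and the farthest bound among these was 0.71 on the log2 scale, that of BMP4. These 20 hold every probe set of 7 genes, BMP2, BMP4, BMP7, ID2, ID4, MSX1 and ATOH8. The other 4 were ID1, ID3 and the 2 brighter MSX2 probe sets. Of the 24, 8 had a mean under the array medians, where a small interval also reflects compressed signal.

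**Figure D3:**
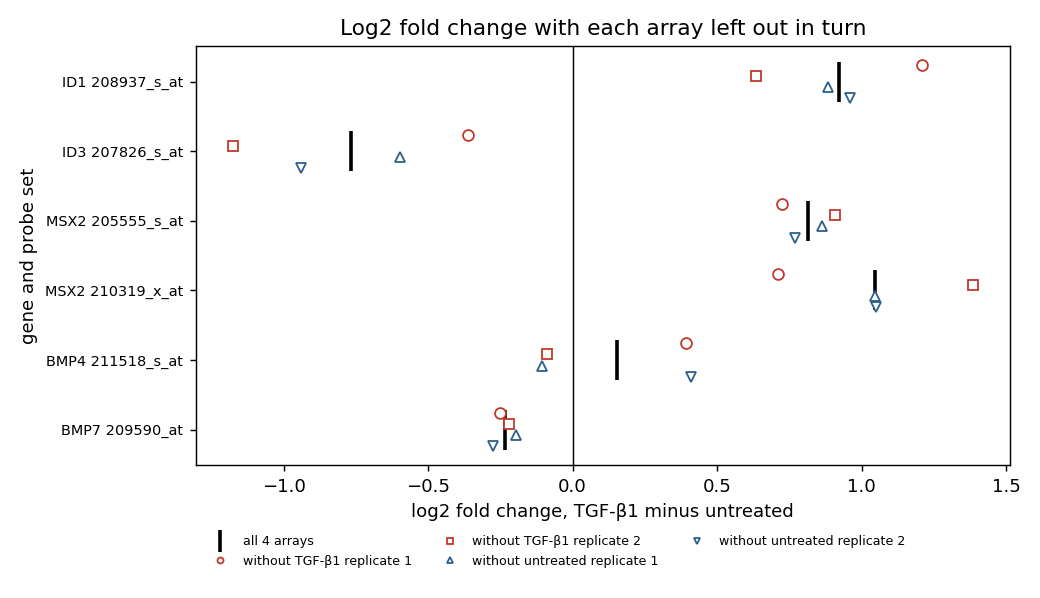
Log2 fold change, TGF-β1 minus untreated, of 6 probe sets with all 4 arrays (black bars) and with each array left out in turn (open symbols, red for TGF-β1 arrays and blue for untreated arrays). ID1 and both MSX2 probe sets stay above 0 and ID3 and BMP7 209590_at below 0, while BMP4 lies on both sides.

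The start regions of ID1, ID3 and MSX2 are shown, the 3 genes with a probe set at an unadjusted p under 0.05, of which ID1 and MSX2 were higher in TGF-β1 arrays and ID3 lower. Each is the 250 bases before the RefSeq start of the gene in GRCh38.p14, 5′ to 3′ on the gene's strand. Capitals mark the TATA box core TATAA, the box CCAAT and the SMAD-binding letters CAGAC, each on either strand, and where 6 letters are marked together TATAA overlaps its own reverse complement. The windows are chr20:31605039-31605288 on the plus strand for ID1, chr1:23559502-23559751 on the minus strand for ID3 and chr5:174724332-174724581 on the plus strand for MSX2.
ID1: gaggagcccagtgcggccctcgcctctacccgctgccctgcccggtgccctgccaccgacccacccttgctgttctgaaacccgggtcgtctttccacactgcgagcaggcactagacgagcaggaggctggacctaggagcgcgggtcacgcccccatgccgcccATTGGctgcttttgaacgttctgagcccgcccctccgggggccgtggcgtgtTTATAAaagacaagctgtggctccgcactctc
ID3: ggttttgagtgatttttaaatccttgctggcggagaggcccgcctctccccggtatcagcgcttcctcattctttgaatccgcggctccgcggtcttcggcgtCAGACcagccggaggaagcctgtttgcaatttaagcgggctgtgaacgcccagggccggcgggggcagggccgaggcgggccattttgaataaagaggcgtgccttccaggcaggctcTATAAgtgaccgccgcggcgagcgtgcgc
MSX2: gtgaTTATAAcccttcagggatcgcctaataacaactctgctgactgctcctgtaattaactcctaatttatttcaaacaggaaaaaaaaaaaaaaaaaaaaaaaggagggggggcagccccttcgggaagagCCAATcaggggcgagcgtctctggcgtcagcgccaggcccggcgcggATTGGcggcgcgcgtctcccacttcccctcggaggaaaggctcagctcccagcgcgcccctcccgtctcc

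Both ID genes shown have TATAA close to the start, beginning 31 bases before it in ID1 and 29 in ID3, and ID4 also has it at 29. A BMP4 window has it at 28 on the other strand, and the ID2 window lacks it. In MSX2 the letters lie 245 bases before the start, and 2 CCAAT boxes lie at 117 and 70. TATAA occurs in 18.9% of all 35116 RefSeq windows of this length and CCAAT in 32.0%. CAGAC, a short form of the SMAD-binding letters, occurs in 38.0% of them and among the printed windows in that of ID3. GGCGCC, the core of BMP-responsive elements described for ID1, occurs in 16.4% of all windows. Of the 10 windows that matched 8 of the member genes it occurs in 1, a BMP4 window. The search did not extend beyond these windows, so whether ID1 or another member has GGCGCC farther upstream was not tested. TATAA and CCAAT were added after the sequences were seen, and the letters in a window are a description, not a site.

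The rest of the BMP pathway was read from a list of 57 genes, of which 54 had a probe set of their own. Of their 143 probe sets, 8 were higher and 0 lower at a limma adjusted p under 0.05, and 135 were not called. Their median log2 fold change was -0.02. The 8 belong to BMPR2, ACVR1, SMAD7, FSTL3 and GREM1. None of the 143 was called with any 1 of the 4 arrays left out, but such fits leave 1 array in a group and called few of all probe sets. Among 25 probe sets of 9 receptor and co-receptor genes, 5 were higher. BMPR2, the type II receptor for BMPs, had 4 of them. The largest change was that of 225144_at, which read 10.2 and 10.3 in TGF-β1 arrays against 8.68 and 8.86 in untreated arrays (log2 fold change 1.49 ± 0.119 SE, limma adjusted p = 0.0123). Its probe sets 238516_at (log2 fold change 0.91, limma adjusted p = 0.0646) and 1556075_at (-0.12, limma adjusted p = 0.745) were not called. Averaged over its probe sets, BMPR2 differed by 0.92 on the log2 scale. The type I receptor gene ACVR1 read 10.4 and 10.4 against 9.67 and 9.68 by 203935_at (log2 fold change 0.73, limma adjusted p = 0.0435). RGMB, a BMP co-receptor named after its values were seen, was the lowest of the group at a log2 fold change of -1.09 (limma adjusted p = 0.133).

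Inhibitors of the pathway had 3 of the 8 calls. SMAD7, the inhibitory SMAD induced by TGF-β and BMP, read 10.2 and 9.87 in TGF-β1 arrays against 8.26 and 8.13 in untreated arrays by 204790_at (log2 fold change 1.84 ± 0.139 SE, limma adjusted p = 0.0106), the 1 call among 20 probe sets of 6 SMAD genes. At an unadjusted p under 0.05, 3 of these 20 were higher and 3 lower, against 6.34% and 6.87% of all probe sets. SMAD1, named after its values were seen, was lower without a call by 227798_at (log2 fold change -0.42, limma adjusted p = 0.179). The same held for its 210993_s_at (-0.32, limma adjusted p = 0.251), while the groups overlapped in its dim 208015_at (-0.16). Of 21 probe sets of 14 secreted and membrane antagonists, 2 were higher. FSTL3, a follistatin-like protein that binds activins and some BMPs, read 10.1 and 10.0 against 7.99 and 8.24 (log2 fold change 1.97 ± 0.126 SE, limma adjusted p = 0.00746). GREM1, the secreted BMP antagonist gremlin, read 4.78 and 4.73 against 3.92 and 3.90 by 218468_s_at (log2 fold change 0.85, limma adjusted p = 0.0318), below the array medians on all 4 arrays. Its other probe set, 218469_at, also dim, was not called (log2 fold change 0.73, limma adjusted p = 0.108). BAMBI, a decoy receptor named after its values were seen, read 11.1 and 10.3 against 9.71 and 9.33 and was not called (log2 fold change 1.21, limma adjusted p = 0.128).

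The remaining groups had no call. Among 17 probe sets of 10 other ligand genes the largest change was that of BMP8B (207865_s_at, log2 fold change -0.27), and 0 had an unadjusted p under 0.05. Of 34 probe sets of 12 other BMP-responsive transcription factor genes, HES1 had the largest, with 10.4 and 10.1 in TGF-β1 arrays against 9.37 and 9.52 in untreated arrays (203394_s_at, log2 fold change 0.78, limma adjusted p = 0.0838), and 3 were higher at an unadjusted p under 0.05. For the E proteins, the partners of the ID proteins, 19 of 26 probe sets had a negative log2 fold change, against 28380 of all 54613. The 26 read only 3 genes, their median was -0.07, and 2 were lower at an unadjusted p under 0.05. At that p 6.34% of all probe sets were higher and 6.87% lower, so the 3 of 34 and the 2 of 26 are near the background. The largest change among the 26 was that of TCF4 (203753_at, -0.76, unadjusted p = 0.0574), at a level under the array medians. Against the 0.650% of all probe sets called higher stand 8 of 143 here and 1 of 24 among the members, and 4 of the 8 read 1 gene, BMPR2.

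**Figure D4:**
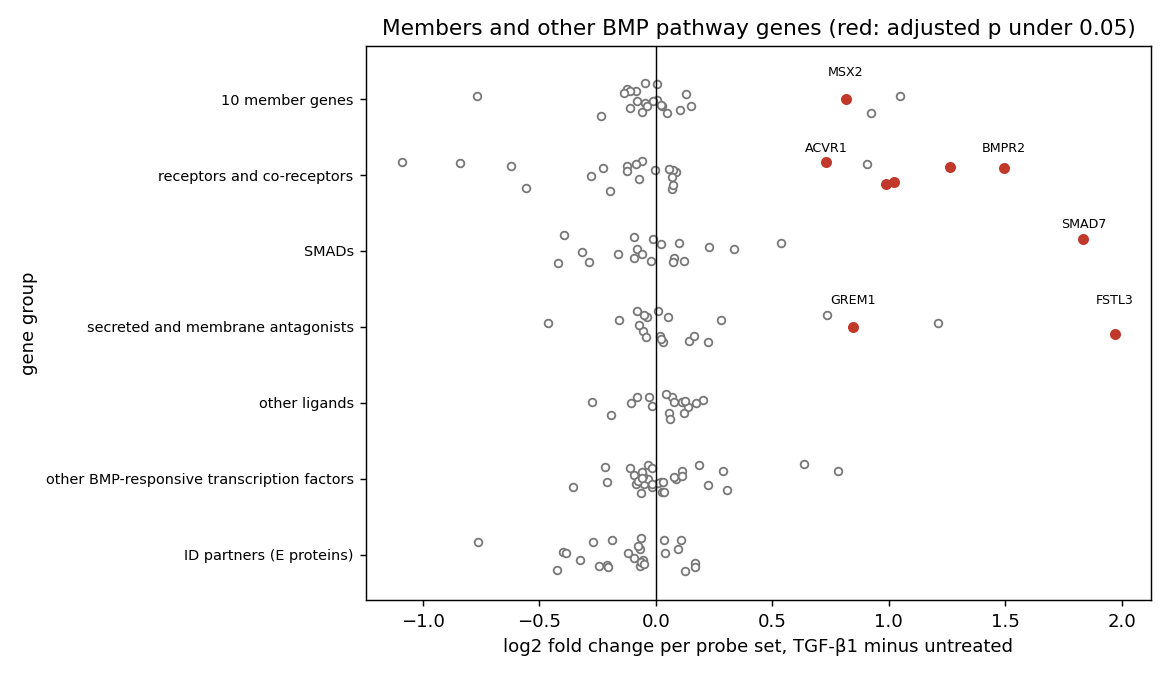
Log2 fold change per probe set, TGF-β1 minus untreated, for the 10 member genes and the 6 groups of other BMP pathway genes (red: limma adjusted p under 0.05; points are spread vertically for legibility). The called probe sets all lie to the right of 0, in the receptor, SMAD and antagonist groups and in MSX2.

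The genes whose values ran most like those of the members were sought by root mean square distance between log2 values centred over the 4 arrays. The candidates were the 20460 probe sets with a single gene symbol and a mean of 7 or more. Nearest to ID1 were SMAD3 (0.066), ADAMTS15 (0.071) and ATXN1 (0.072). Nearest to MSX2 by 205555_s_at were GBP3 (0.022), SEMA3C (0.027) and IL10RB (0.029), and by 210319_x_at B4GALT1 (0.024), LIPH (0.057) and ALS2CL (0.060). ID3 had no neighbour as near, the closest being TOX3 (0.156), MANEA (0.180) and SYBU (0.180). With 4 arrays and this many candidates, near neighbours arise easily, and a small distance is a description of these arrays.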

How the data were processed

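Total RNA of 4 samples was labelled as biotinylated cRNA and read on 1-colour HG-U133 Plus 2.0 arrays, per the labels' protocols. The deposited values are log2 values, made by the authors with RMA (background correction, quantile normalization, summarization per probe set) per the series' design text; the sources used here name no software version. Quantile normalization would hide a common shift of most transcripts.

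The table has 54675 probe sets, of which 62 array controls were left out. Names came from the platform annotation (41097 probe sets with 1 symbol, 1801 with several, 11777 with none), with symbols updated through Entrez IDs. No column was left without a sample. limma 3.58.1 in R 4.3.3 (lmFit, eBayes without trend, two-sided, 5.97 total degrees of freedom) compared the groups over all 54613 probe sets, with Benjamini-Hochberg adjustment and a threshold of 0.05. Changes are given as TGF-β1 minus untreated. The fit was tested on simulated data. Precision is limited by the number of arrays.

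The members, the pathway list, the marker lists and the tests were chosen with earlier results of these data known. Genes named are all members, TGFBR2, the called genes of each pathway group (where none, the largest change) and the 3 nearest in pattern. Any other is stated as chosen after its values were seen. Alternatives were minimum means of 5 or 7, an intensity trend, 2 centrings, 2 gene-level summaries, a replicate block, leaving out each array and 2 other thresholds. Promoter windows came from RefSeq, GRCh38.p14.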

Additional observations from a re-analysis of the deposited data

How the results depend on the processing

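ID1, ID3, the MSX2 probe sets 205555_s_at and 210319_x_at, BMP7 209590_at, ATOH8 228890_at and ID4 229386_at kept their sign under every alternative that could test them, and of the 247 values of member probe sets under alternatives 28 changed sign, all of them from log2 fold changes near 0 that were not called. MSX2 205555_s_at passed with minimum means of 5 or 7, with an intensity trend and with both centrings (limma adjusted p from 0.0325 to 0.0471). It did not pass with the replicate block (limma adjusted p = 0.0846). Nor did it pass with any array left out, where few of all probe sets did. The replicate numbers are shared by the groups but nothing in the labels ties them to a culture or day. Deviations from the group means correlated at 0.224 between arrays of the same number (0.378 over probe sets with a mean of 7 or more), and with this replicate block 84 probe sets were higher and 4 lower in all, 0 and 0 among the members and 2 and 0 in the pathway list.

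The counts of all probe sets called higher and lower, 355 and 166, were 536 and 430 with a minimum mean of 7, 3465 and 3750 at an unadjusted p under 0.05, and 0 to 25 and 0 to 1 with each array left out. The lower count was also 253 with an intensity trend, 291 with 1 probe set per gene and 312 with averaged probe sets. Among members, 0 were higher with 1 probe set per gene or with averaged probe sets, 0 to 0 with each array left out, and 3 higher and 1 lower at an unadjusted p under 0.05. In the pathway list 5 genes were higher with averaged probe sets, 17 probe sets higher and 9 lower at an unadjusted p under 0.05, 1 lower with a minimum mean of 7 and by the study's 2-fold rule turned to lower values, and 0 to 0 with each array left out. Fewer arrays leave fewer degrees of freedom; the cause of the other shifts was not tested.

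With each array left out, log2 fold changes ran from -0.252 to 0.0336 for ATOH8 1558705_at, -0.0220 to 0.0282 for 1558706_a_at, -0.226 to 0.00679 for ID2 201565_s_at, -0.273 to 0.0288 for 201566_x_at, -0.286 to 0.00893 for BMP2 205290_s_at, -0.0682 to 0.0421 for MSX2 205556_at, -0.256 to 0.136 for MSX1 205932_s_at and -0.146 to 0.0483 for 228473_at. For ID4 they ran from -0.0496 to 0.148 (209291_at), -0.180 to 0.0222 (209292_at), -0.15 to 0.16 (209293_x_at) and -0.14 to 0.34 (226933_s_at). For BMP7 they ran from -0.30 to 0.21 (209591_s_at), -0.21 to 0.26 (211259_s_at) and -0.11 to 0.15 (211260_at), and for BMP4 from -0.10 to 0.41. The gene mean of BMP2 was -0.0042 and that of ID4 -0.0016, and MSX2 205556_at was 0.016 when centred on the 6 of 8 housekeeping genes with a probe set of their own. No scaling moved the median log2 fold change of all probe sets beyond 0.023.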
